A study of Rattus norvegicus with 18 samples.

Results

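Liver RNA of obese rats that received plantain at 3 doses, or none, was read here as 1 ordered series, and each gene was asked whether its level followed the order of the doses, reached a new level at the first dose, or turned back. The series holds 12 of the 18 libraries in the data set, 3 for each of 4 groups, taken by their labels: obese control, low dose, medium dose and high dose (dose ranks 0 to 3). Genes were kept where the level reached 1 FPKM, a fragment count scaled by gene length and by library size, in at least 3 of the 18 libraries. This left 11945 of the 33657 genes in the table.

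All 4 groups were male rats, labelled as 18 weeks old and as obese. The obese control was given water, and the other 3 groups were fed plantain. The sources used here do not give the strain, the cause of the obesity, the plant preparation, the dose amounts or the length of feeding, so the doses are compared by rank. A normal control and an orlistat group, with 3 libraries each, only shared the estimate of spread. Nothing states that the 3 libraries of a group came from separate animals. The p-values therefore cover only how far these libraries scatter, and that scatter may be technical.

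The liver's main cell is the hepatocyte, which makes most plasma proteins and folds them in the endoplasmic reticulum (ER) with the help of chaperones. The same cell makes fat, cholesterol and bile acids, burns fatty acids and releases glucose. Kupffer cells are its resident macrophages, sinusoidal endothelial cells line its capillaries, and stellate cells store vitamin A and can lay down collagen.

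The reads recovered from the table numbered 16598744 to 20636859 per library in the high dose group and 19100021 to 24271643 in the other 3 groups. Hepatocyte markers were high in all 12 libraries: Alb (albumin) lay between 54536 and 62107 FPKM and Hnf4a, a liver transcription factor, between 99.5 and 104 FPKM. Among fat cell genes, Lep was listed at 0 in every one of the 12 libraries and Adipoq reached 0.0261 FPKM at most, while Fabp4 lay between 2.82 and 5.61 FPKM. Of the exocrine pancreas, Prss1 was listed at 0 in all 12 and Cela2a lay between 0.414 and 1.27 FPKM. Of the liver's own bile ducts, Krt7 reached 0.0933 FPKM at most and Epcam lay between 5.80 and 8.25 FPKM. The authors' scaling carries a factor per library that differed between groups, from 0.974 ± 0.005 (SD, n = 3) in the obese control to 1.028 ± 0.003 at the high dose. The reads from mitochondrial genes made up 8.11 ± 0.26% of the library in the obese control, 6.92 ± 0.33% at the low dose, 6.52 ± 0.37% at the medium dose and 4.64 ± 0.06% at the high dose.

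On the first principal component, which held 33.3% of the variance, the groups stood in the order of the doses. Mean scores were -22.9 ± 0.64 (SD, n = 3) in the obese control, -2.35 ± 0.51 at the low dose, 8.34 ± 1.35 at the medium dose and 16.9 ± 0.24 at the high dose, with no overlap between groups. The second component, with 13.0%, did not follow the doses. It set the low dose at -14.6 ± 1.04 and the medium dose at 10.3 ± 0.59, with the obese control (4.86 ± 1.35) and the high dose (-0.56 ± 1.19) between them.

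**Figure D1:**
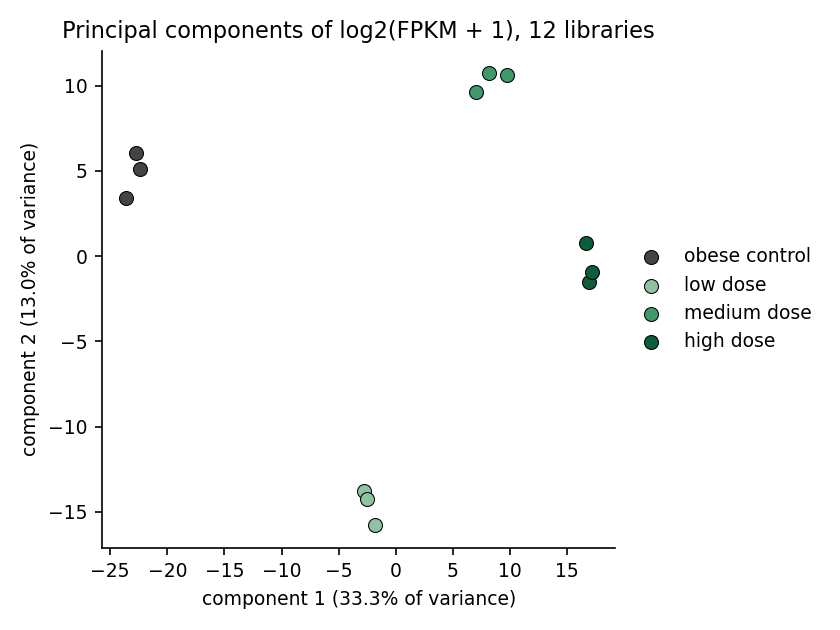
Scores of the 12 libraries on the first 2 principal components of log2(FPKM + 1), with the share of variance on each axis; each point is 1 library, coloured by group. From left to right the groups run from the obese control to the high dose, while the second axis parts the low dose from the medium dose.

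Expression differed somewhere among the 4 groups for 6802 genes, 56.9% of those tested (limma F-test, Benjamini-Hochberg adjusted p under 0.05). The step from the obese control to the low dose was the largest in number of genes: 2183 genes (18.3%) rose and 1764 (14.8%) fell. Between the low and the medium dose 1288 genes (10.8%) rose and 1463 (12.2%) fell, and between the medium and the high dose 1235 (10.3%) rose and 1195 (10%) fell. The 3 doses differed from one another for 4588 genes (38.4%). A linear trend over the 4 ranks rose in 3167 genes (26.5%) and fell in 3105 (26%), and over the 3 doses alone in 1939 (16.2%) and 1964 (16.4%). Against the obese control, 2599 genes (21.8%) were higher and 2404 (20.1%) lower at the medium dose, and 3181 (26.6%) higher and 3018 (25.3%) lower at the high dose; the comparisons share the obese control libraries. Most changes were small, since the difference between high dose and obese control exceeded 1 on the log2(FPKM + 1) scale for 73 genes upward and 143 downward. With TPM, which rescales every library to the same sum, the median of all genes moved by 0.14 between obese control and high dose, and the 3 steps held 2643 rises and 1306 falls, 1796 and 952, and 2596 and 638.

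A gene was called ordered by dose where the linear trend over the 4 ranks passed, the group means ran strictly in 1 direction and no plateau was found. This held for 1269 genes (10.6%) upward and 961 (8.05%) downward. In the median ordered gene the first step made up 43.1% of the whole rise and 41.3% of the whole fall. The split depended on the scaling: 1309 upward and 828 downward with quantile normalization, 1235 and 1019 on the recovered reads, 1087 and 885 with the trend of gene length removed, and 2517 and 292 under TPM. Only 94 genes (0.787%) rose and 68 (0.569%) fell with each of the 3 steps past the threshold.

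A plateau was called where the first step passed and the 95% intervals of medium and high dose against low dose both stayed within 0.5 times that step. This held for 123 genes (1.03%) upward and 101 (0.846%) downward, and the numbers depend on that bound. Genes that turned back had a first change and a later opposite change that both passed: 592 genes (4.96%) went up then down, with the peak at the low dose in 363, and 494 (4.14%) went down then up, with the trough at the low dose in 229. A group's own noise enters both neighbouring steps with opposite sign. In 63 genes both directions of turning were met, and they were counted by the group farthest from the obese control. The other 3262 changed genes fitted none of these shapes.

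**Figure D2:**
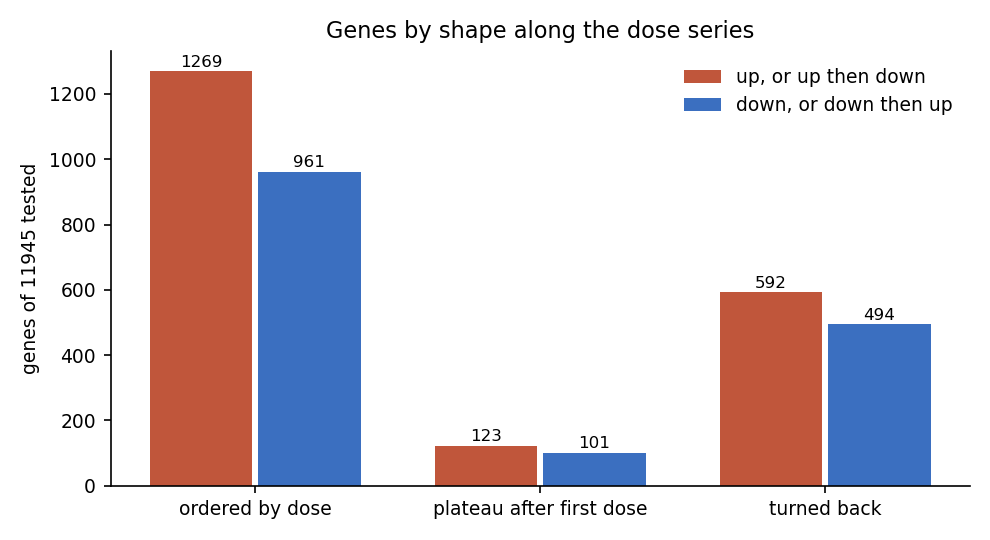
Number of genes, of 11945 tested, whose profile along the dose series was ordered, levelled off after the low dose or turned back; red bars are rises (or up then down), blue bars falls (or down then up). Ordered genes outnumber the other shapes, with 1269 upward and 961 downward, against 123 and 101 at a plateau.

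Gda, guanine deaminase of purine breakdown (chromosome 1, 238982392 to 239057732 in the coordinates of the table, whose build is not named), was among the largest ordered rises. It measured 9.802, 11.02 and 12.1 FPKM in the obese control, 24.4, 24.7 and 24.9 at the low dose, 26.2, 28.3 and 29.03 at the medium dose and 33.7, 37.7 and 36.1 at the high dose. The 4 groups did not overlap, and the whole rise was 1.62 ± 0.060 (SE, log2 scale, limma adjusted p = 8.3e-12), of which 1.10 came with the low dose. Nrg4, a secreted growth factor of the neuregulin family, measured 1.02, 1.21 and 0.794 FPKM in the obese control, 5.21, 4.91 and 3.71 at the low dose, 4.95, 4.12 and 5.39 at the medium dose and 8.12, 8.72 and 8.03 at the high dose. Its low and medium dose libraries overlapped, with a difference of 0.06 ± 0.11 (adjusted p = 0.77), so the order of those 2 groups is not resolved. Glt1d1, a glycosyltransferase domain protein, went from 1.84, 1.71 and 1.74 FPKM in the obese control to 6.45, 7.27 and 6.59 FPKM at the high dose, a rise of 1.49 ± 0.060 (adjusted p = 2.2e-11). Nat8f3 rose by 0.83 ± 0.11 and then by 0.72 ± 0.11, and stood at 2.67, 3.203 and 3.05 FPKM at the medium and 2.71, 3.15 and 3.08 FPKM at the high dose. Map2k3, a kinase upstream of p38, also had ordered means, but its libraries scattered from 2.52, 5.09 and 1.92 FPKM in the obese control to 9.52, 13.4 and 17.3 FPKM at the high dose, and none of its 3 steps passed (adjusted p = 0.30, 0.80 and 0.092).

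Among the genes in which every step passed upward, Wee1, a kinase that holds back entry into mitosis, measured 1.33, 1.06 and 0.916 FPKM in the obese control, 2.53, 2.53 and 2.39 at the low dose, 3.56, 3.28 and 3.08 at the medium dose and 4.79, 4.19 and 4.61 at the high dose. No 2 groups overlapped, and its steps were 0.73 ± 0.076, 0.31 ± 0.076 and 0.36 ± 0.076. Larp4b, an RNA-binding protein, moved by nearly the same amount at every dose, with steps of 0.40 ± 0.046, 0.42 ± 0.046 and 0.39 ± 0.046 (adjusted p = 6.1e-06, 5.9e-06 and 2.0e-05). Ppm1k, the phosphatase that activates branched-chain ketoacid breakdown, rose with shrinking steps of 0.64 ± 0.033, 0.39 ± 0.033 and 0.17 ± 0.033, from 13.9, 13.9 and 13.4 FPKM to 31.4, 34.5 and 32.5 FPKM. Lrrc58 and Epb41 rose by 1.20 ± 0.072 and 1.17 ± 0.046 over the whole series. Gclm, a subunit of the enzyme that limits glutathione synthesis, measured 55.1, 57.1 and 54.9 FPKM in the obese control, 69.99, 67.7 and 70.7 at the low dose, 90.1, 85.7 and 89.8 at the medium dose and 115, 115 and 115 at the high dose. Its steps of 0.31 ± 0.024, 0.35 ± 0.024 and 0.37 ± 0.024 were alike in size, and the total was 1.03 ± 0.024 on the log2 scale (adjusted p = 1.3e-13).

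The largest ordered falls were of mixed quality. Rprm (Reprimo, linked to arrest before mitosis) measured 4.95, 5.42 and 6.28 FPKM in the obese control, 2.27, 1.895 and 2.41 at the low dose, 1.597, 1.23 and 1.51 at the medium dose and 0.713, 0.829 and 0.746 at the high dose, without overlap between groups, and each step passed (adjusted p = 4.6e-07, 0.0071 and 0.0022). Nfs1, the cysteine desulfurase of iron-sulfur cluster assembly (chromosome 3, 152200936 to 152222647), measured 33.2, 18.3 and 11.4 FPKM in the obese control, 17.9, 17.6 and 17.1 at the low dose, 1.61, 1.08 and 1.003 at the medium dose and 1.12, 1.06 and 1.11 at the high dose. It fell in 1 step of -3.07 ± 0.58 between the low and the medium dose (adjusted p = 0.0011), and its obese control libraries scattered widely, so its ordered means describe a single step. Rps6, a ribosomal protein, ranged from 50.9, 73.6 and 52.7 FPKM in the obese control to 21.1, 3.799 and 2.64 FPKM at the high dose with single libraries at the low dose between 14.4 and 69.0 FPKM, and no step passed (adjusted p = 0.61, 0.63 and 0.16). Reads of near-identical copies of such a gene cannot be told apart in the table. The annotated precursors Mir6334 and Mir3557 also had ordered falling means, at no more than 12.4 and 3.54 FPKM in any of the 12 libraries. Reads over such short precursor genes do not measure the mature microRNA.

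Kynu, kynureninase of tryptophan breakdown (chromosome 3, 28416954 to 28566928), measured 98.1, 95.2 and 92.97 FPKM in the obese control, 55.7, 51.2 and 53.1 at the low dose, 43.4, 38.9 and 43.5 at the medium dose and 35.3, 35.6 and 34.1 at the high dose, and all 3 steps passed (-0.83 ± 0.042, -0.34 ± 0.042 and -0.25 ± 0.042). Gckr, a regulatory protein of hepatic sugar use, fell from 74.8, 74.7 and 77.6 FPKM to 27.5, 30.1 and 30.1 FPKM, by -1.34 ± 0.040 (adjusted p = 8.0e-13). Wsb1, a substrate adaptor of a ubiquitin ligase, changed by -0.86 ± 0.049, -0.31 ± 0.049 and -0.18 ± 0.049 in its 3 steps. In each of these 3 genes the first step was the largest, and no 2 groups overlapped.

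Cyp7a1, the rate-limiting enzyme of classical bile acid synthesis (chromosome 5, 19358734 to 19368431), rose to a plateau. It measured 19.03, 19.1 and 18.8 FPKM in the obese control, 48.3, 45.96 and 46.1 at the low dose, 43.6, 39.5 and 42.7 at the medium dose and 45.1, 43.2 and 44.5 at the high dose. The first step was 1.26 ± 0.032 (adjusted p = 2.7e-13), while the medium dose lay -0.16 ± 0.032 from the low dose and the high dose 0.08 ± 0.032 from the medium dose. Ugt2b17, a glucuronosyltransferase, rose by 1.12 ± 0.036 and then stayed between 44.8 and 52.0 FPKM in the 9 treated libraries. Upp2, a uridine phosphorylase, rose by 1.29 ± 0.057, fell by 0.41 ± 0.057 at the medium dose and returned by 0.44 ± 0.057. The plateau rule also took genes that moved later by less than its bound. Fmo5, a flavin monooxygenase, rose by 1.07 ± 0.028 and fell by 0.26 ± 0.028 at the high dose, and Ces2e, a carboxylesterase, measured 0.480, 0.380 and 0.341 FPKM in the obese control, 5.89, 6.71 and 7.37 at the low dose, 11.95, 10.9 and 11.01 at the medium dose and 3.402, 3.19 and 3.15 at the high dose, which is a rise, a further rise and a partial return.

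Downward, Lox, the lysyl oxidase that cross-links collagen (chromosome 18, 47500330 to 47577819), had the largest first step of the downward plateau genes among those named. It measured 10.3, 9.76 and 10.1 FPKM in the obese control, 2.06, 2.31 and 1.89 at the low dose, 3.49, 3.07 and 2.87 at the medium dose and 2.24, 2.31 and 2.16 at the high dose. The fall of -1.84 ± 0.065 at the low dose (adjusted p = 1.0e-11) was followed by 0.42 ± 0.065 and -0.35 ± 0.065. Hao2, a peroxisomal hydroxyacid oxidase, fell from 245, 239.9 and 237 FPKM to 108, 105 and 106 FPKM at the low dose and regained 0.46 ± 0.028 by the high dose. Paqr9, a membrane receptor of the progestin and adipoQ family, and Dab1, an adaptor of reelin signalling, changed by -1.24 ± 0.041 and -1.26 ± 0.063 at the low dose and stood -1.23 ± 0.041 and -1.40 ± 0.063 from the obese control at the high dose.

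**Figure D3:**
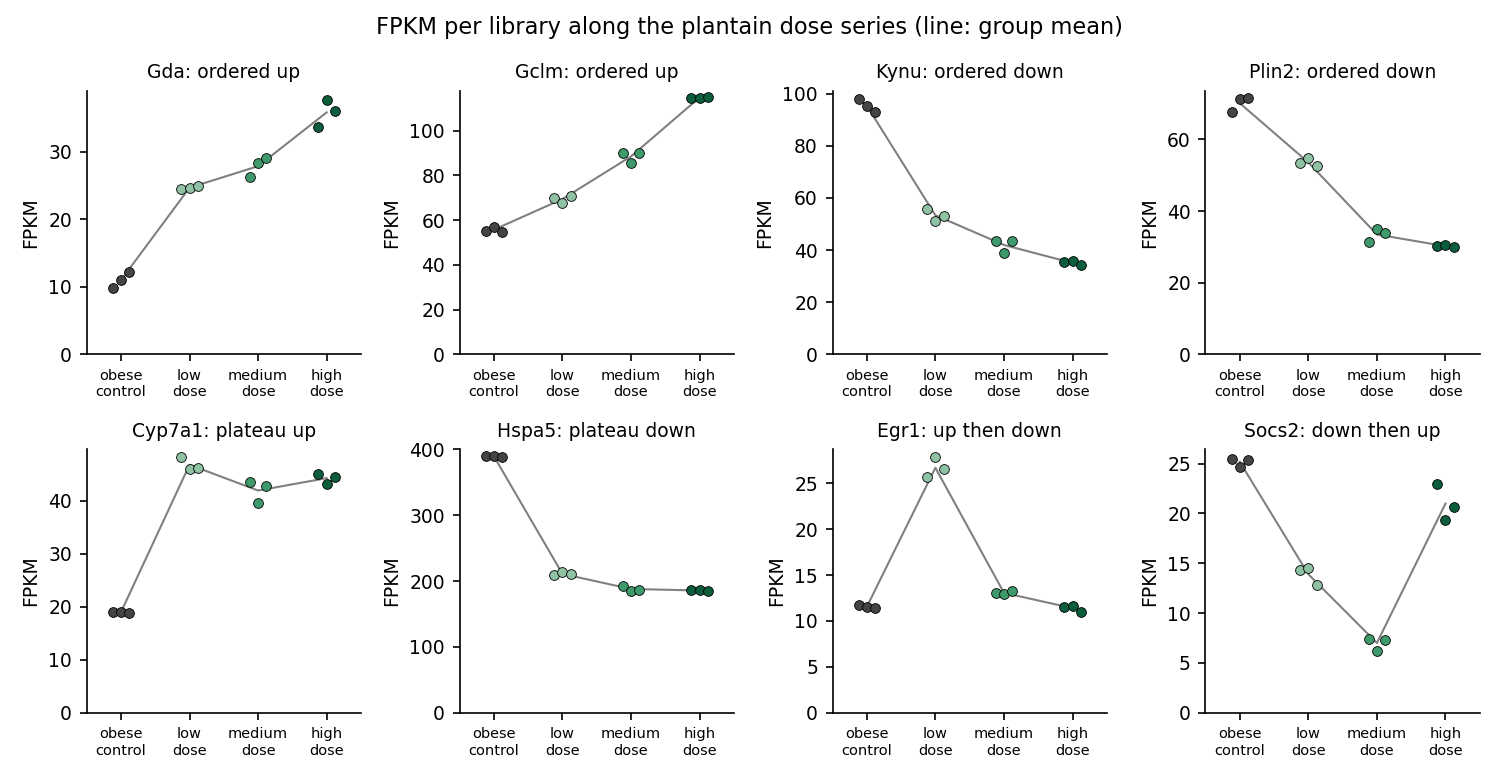
FPKM in each of the 12 libraries (points) and group means (line) for 8 genes, by group along the series; each vertical axis starts at 0. Gda, Gclm, Kynu and Plin2 move in 1 direction, Cyp7a1 and Hspa5 make most of their change at the low dose, and Egr1 and Socs2 turn back.

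Of the genes that went up then down, Egr1, an immediate early transcription factor, ended near its starting level. It measured 11.7, 11.5 and 11.4 FPKM in the obese control, 25.6, 27.9 and 26.5 at the low dose, 13.03, 12.9 and 13.3 at the medium dose and 11.6, 11.6 and 11.02 at the high dose. The low dose libraries lay far above the rest, and the medium dose still slightly above the obese control. The rise of 1.14 ± 0.032 was followed by a fall of -0.98 ± 0.032, and the difference between high dose and obese control did not pass (-0.02 ± 0.032, adjusted p = 0.68). Ddr1, a collagen receptor kinase, and Cdh17, a cadherin, peaked instead at the medium dose. Ddr1 measured 0.381, 0.369 and 0.573 FPKM in the obese control, 6.701, 7.39 and 7.19 FPKM at the medium dose and 2.43, 2.37 and 2.72 FPKM at the high dose. Cdh17 rose from 1.21, 1.14 and 1.301 to 10.6, 11.4 and 11.04 FPKM and stood at 4.82, 4.63 and 4.32 FPKM at the high dose, so both remained above the obese control, by 1.28 ± 0.077 and 1.33 ± 0.050. Serpina7, the thyroxine-binding globulin, rose by 1.09 ± 0.081 at the low dose and fell by 1.78 ± 0.081 at the medium dose, below its starting level. Tspan4 met the rule with libraries from 16.7, 11.3 and 28.1 FPKM at the low dose and 7.15, 0.451 and 0.886 FPKM in the obese control. Its first step was not called without obese control replicate 2, obese control replicate 3 or low dose replicate 3 (adjusted p = 0.088, 0.073 and 0.077).

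Among the genes that went down then up, Socs2 and Cish, both feedback inhibitors induced by growth hormone signalling, had steps in the same directions. Socs2 (chromosome 7, 36495480 to 36499784) measured 25.5, 24.7 and 25.3 FPKM in the obese control, 14.4, 14.6 and 12.8 at the low dose, 7.43, 6.23 and 7.35 at the medium dose and 23, 19.3 and 20.6 at the high dose. It fell in 2 steps (-0.81 ± 0.074 and -0.90 ± 0.074) and rose by 1.46 ± 0.074 at the high dose. Cish measured 9.91, 8.85 and 9.64 FPKM in the obese control, 6.12, 6.62 and 6.63 at the low dose, 3.88, 3.504 and 3.68 at the medium dose and 12.1, 11.8 and 13.1 at the high dose, and its high dose level exceeded the obese control by 0.35 ± 0.052 (adjusted p = 4.1e-05). Abhd3, a phospholipase of the alpha/beta hydrolase family, fell from 13.6, 12.4 and 13.6 FPKM to 2.29, 2.14 and 2.29 FPKM at the medium dose and rose by 1.49 ± 0.074 at the high dose. Gimd1 and Ednra, the endothelin A receptor, had their trough at the low dose, with steps of -1.13 ± 0.059 and -0.97 ± 0.065 followed by 0.84 ± 0.059 and 0.44 ± 0.065.

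Most chaperones and folding enzymes of the ER fell, and the low dose held the largest part of the change. Of 31 tested members 30 changed among the groups; 10 were ordered downward, 7 formed a downward plateau, 3 fell and came back in part (Pdia6, Dnajb9 and Sel1l), and 2, Dnajc10 and Edem1, were ordered upward. The first step passed downward in 22 and upward in 2, the second downward in 14 and upward in 4, and the third downward in 8 and upward in 3. The median member changed by -0.29 in the first step, -0.08 in the second and -0.02 in the third, against 0.01, 0.00 and 0.00 for all tested genes. Of all tested genes 18.3% rose and 14.8% fell in the first step. The second held 10.8% and 12.2%, and the third 10.3% and 10%. By shape, 10.6% of all tested genes were ordered upward and 8.05% downward, and 1.03% and 0.846% formed a plateau upward and downward. Another 4.96% went up then down and 4.14% down then up. These shares also belong beside the list counts that follow. At the high dose 24 members were lower than in the obese control and 4 higher, beside 25.3% and 26.6% of all tested genes. The shape of the later steps depends on the scaling. Under TPM 3 were ordered downward, 8 at a plateau and 6 went down then up, and the last step passed upward in 11 and downward in 2, with a median of 0.07.

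Hspa5, the chaperone BiP, which holds the sensors of the unfolded protein response (chromosome 3, 13838304 to 13842762), measured 389.6, 390.3 and 389 FPKM in the obese control, 209, 213 and 210.2 at the low dose, 192, 186 and 186 at the medium dose and 187, 186 and 184 at the high dose. The first step of -0.88 ± 0.015 held most of the total of -1.06 ± 0.015, and the last step was -0.02 ± 0.015 (adjusted p = 0.45). Hyou1, a large ER chaperone, dropped from 66.8, 64.9 and 63.4 FPKM to 28.5, 28.4 and 28.3 FPKM at the low dose and stood at 22.1, 22.02 and 21.1 FPKM at the high dose. Creld2, an ER protein induced by misfolding, measured 52.7, 51.4 and 52.7 FPKM in the obese control, 16.7, 20.5 and 17.6 at the low dose, 17.1, 15.1 and 17.5 at the medium dose and 14.1, 13.3 and 14.97 at the high dose. Its later steps of -0.13 ± 0.077 and -0.21 ± 0.077 did not pass (adjusted p = 0.25 and 0.063), and the 3 dose groups lay far below the obese control.

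Other members kept falling. Manf, a secreted ER stress protein, measured 189, 177 and 187 FPKM in the obese control, 104, 98.3 and 107 at the low dose, 89.4, 83.5 and 85.1 at the medium dose and 72.3, 71.4 and 75.3 at the high dose, and every step passed, with a total of -1.33 ± 0.035 (adjusted p = 2.1e-13). Pdia4, a disulfide isomerase, changed by -0.46 ± 0.020, -0.24 ± 0.020 and -0.07 ± 0.020. Calr, the calcium-binding chaperone calreticulin, went from 530.1, 533 and 544 FPKM to 369.8, 368 and 375 FPKM, with the largest of its steps again the first (-0.36 ± 0.017). P4hb, another disulfide isomerase, and Canx, calnexin, differed by only -0.04 and 0.04 between high dose and obese control.

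The ER stress response element (ERSE), a promoter element that ATF6 binds together with NF-Y, was searched as CCAAT, then 9 bases of any kind, then CCACG, on both strands of the 250 bases before the start site. RefSeq promoters (build GRCr8) matched 8332 of the tested genes by symbol, among them 26 of the ER list. The element was in 8 of the 26 (30.8%), in 15 of the 8332 tested genes (0.180%) and in 21 of 27457 genes with a promoter in the table (0.0765%). The windows below show it in the members whose fall was ordered or at a plateau; capitals mark the element, read in the strand of the gene, so that a match on the other strand appears as its reverse complement, and each window has up to 30 bases on either side within those 250.

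Hspa5 at chr3:38452943-38453015 (plus strand): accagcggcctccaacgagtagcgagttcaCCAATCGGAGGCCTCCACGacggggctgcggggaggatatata
Hsp90b1 at chr7:23012421-23012499 (minus strand): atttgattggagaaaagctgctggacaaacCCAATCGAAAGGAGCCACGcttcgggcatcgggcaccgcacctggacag
Hsp90b1 at chr7:23012317-23012395 (minus strand): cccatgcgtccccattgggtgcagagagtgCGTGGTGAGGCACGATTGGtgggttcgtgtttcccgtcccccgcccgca
Calr at chr19:40213117-40213183 (plus strand): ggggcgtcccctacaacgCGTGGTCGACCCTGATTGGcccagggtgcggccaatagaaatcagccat
Creld2 at chr7:121789209-121789287 (plus strand): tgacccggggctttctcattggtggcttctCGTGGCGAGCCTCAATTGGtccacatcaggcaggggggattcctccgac
Dnajc3 at chr15:102432504-102432582 (plus strand): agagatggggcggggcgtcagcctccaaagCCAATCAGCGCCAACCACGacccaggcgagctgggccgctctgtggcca
Ero1b at chr17:92941432-92941506 (plus strand): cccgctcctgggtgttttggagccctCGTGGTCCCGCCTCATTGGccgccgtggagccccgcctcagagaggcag

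Thus 6 of the 8 list members with an element were ordered or at a plateau downward, Hsp90b1 with 2 elements among them. In the whole ER list of 31, 10 were ordered and 7 at a plateau downward, and Hyou1 and Pdia4 had no match in this window. The median of the 8 was -0.44 at the low dose and -0.58 at the high dose. In the other 2 members, Canx changed by -0.05 at the low dose and was in no shape, and Derl3 by -0.50 with no change called. Of the 7 other tested genes with the motif none was ordered or at a plateau downward, and their median was 0.06 at the low dose and 0.21 at the high dose. One of them is Xbp1, the transcription factor of the same response, which measured 132, 132 and 127 FPKM in the obese control, 162, 156 and 156 at the low dose, 123, 130.0 and 129 at the medium dose and 189, 196 and 195 at the high dose, a rise, a fall and a larger rise (0.60 ± 0.029). Its window, also with 1 element, reads as follows.

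Xbp1 at chr14:84604528-84604606 (plus strand): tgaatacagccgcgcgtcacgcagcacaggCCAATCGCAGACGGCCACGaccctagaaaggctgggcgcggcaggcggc

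A match describes the sequence and does not show binding. The list and the motif were chosen with earlier results of these data known, and the part of the element in these falls was not tested.

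The transcription factors and targets of the integrated stress response, which slows translation under amino acid or ER stress, had mixed shapes. Of 22 tested members 8 went up then down, 3 were ordered downward and 1 upward. The second step passed downward in 13 and upward in 3, beside 12.2% and 10.8% of all tested genes. At the high dose 13 were lower than in the obese control and 4 higher, beside 25.3% and 26.6%. Atf5 measured 550.2, 552 and 542 FPKM in the obese control, 358, 357 and 356 at the low dose, 302, 289.7 and 298 at the medium dose and 259, 257 and 264 at the high dose, and all 3 of its falling steps passed (-0.62 ± 0.020, -0.27 ± 0.020 and -0.19 ± 0.020). Fgf21, a hormone released by the stressed or fasted liver, peaked at the low dose with 28.3, 29.6 and 28.8 FPKM and fell to 9.68, 7.65 and 11.3 FPKM at the high dose, below the 17.9, 18.3 and 20.9 FPKM of the obese control. In the cytosol, 9 of 21 heat shock genes fell at the low dose and 3 rose, beside 14.8% and 18.3% of all tested genes. Hsph1 and Stip1 changed by -0.57 ± 0.036 and -0.44 ± 0.033, and Hspa8, the constitutive HSC70, went from 224, 227 and 215 FPKM to 121, 119 and 123 FPKM at the medium dose and back to 139, 143 and 139 FPKM.

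Transcripts encoded by the mitochondrial genome fell with dose, and most of their fall came with the last step. Of 13 tested genes 11 were ordered downward; 8 fell in the first step, 3 in the second and 13 of 13 in the third. The medians of the 3 steps were -0.25, -0.16 and -0.66. ND5, a subunit of respiratory complex I, measured 1554, 1594 and 1493 FPKM in the obese control, 1351, 1456 and 1343 at the low dose, 1282, 1142 and 1167 at the medium dose and 679, 687 and 702 at the high dose, with a last step of -0.79 ± 0.051 (adjusted p = 2.6e-08). COX1, the catalytic subunit of cytochrome oxidase, measured 22694, 23301 and 21729 FPKM in the obese control, 17961, 19279 and 17981 at the low dose, 18823, 16695 and 17181 at the medium dose and 12176, 12149 and 12575 at the high dose. Its medium dose overlapped the low dose, and the high dose lay below both by -0.51 ± 0.043 relative to the medium dose. Without medium dose replicate 1 the second step passed downward in 8 genes. The falling share of mitochondrial reads given above counts all genes of the mitochondrial chromosome, these transcripts among them. With quantile normalization 8 of the 13 were ordered downward, and the median total was -0.94 in place of -1.05.

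The nuclear subunits of the same respiratory chain moved in both directions. Of 31 tested, 5 were ordered downward, 4 upward and for 9 no change was called. The first step passed downward in 12 and upward in 3. At the high dose 15 were lower than in the obese control and 6 higher, beside 25.3% and 26.6% of all tested genes. The trend over the 4 ranks fell in 14 and rose in 7, against 6 and 13 under TPM. The median difference between high dose and obese control was -0.13, against 0.05 under TPM. Uqcrc2 of complex III rose from 48.7, 49.1 and 46.5 FPKM to 68.4, 68.9 and 69.03 FPKM and Sdha of complex II by 0.31 ± 0.023, while Cox4i1 fell from 496, 503 and 523 FPKM to 419, 400.3 and 404 FPKM.

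Fatty acid and triglyceride synthesis turned back in most members. Of 23 tested genes none was ordered by dose, 9 went up then down and 6 down then up; the second step passed upward in 15 and downward in 4, the third upward in 4 and downward in 15. Scd, the stearoyl-CoA desaturase, measured 243, 244 and 245 FPKM in the obese control, 109, 107 and 111 at the low dose, 273, 269 and 275 at the medium dose and 170.0, 167 and 175 at the high dose. Its steps of -1.15 ± 0.020, 1.31 ± 0.020 and -0.67 ± 0.020 were all far larger than their errors, and no 2 groups overlapped. Elovl5, which elongates fatty acids, moved the same way (-0.88 ± 0.022, 0.52 ± 0.022 and -0.21 ± 0.022). Thrsp, a lipogenic protein induced by thyroid hormone and carbohydrate, peaked at the medium dose with 487, 491 and 492 FPKM against 247, 249 and 248 FPKM in the obese control. Acaca, the first committed enzyme of fatty acid synthesis, rose by 0.34 ± 0.037 and 0.47 ± 0.037 and its last step of -0.09 ± 0.037 did not pass (adjusted p = 0.090). Lpin2, a phosphatidate phosphatase, rose from 8.51, 8.64 and 8.25 to 14.8, 14.9 and 14.9 FPKM at the low dose and to 18.7, 18.8 and 18.4 FPKM at the high dose.

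In cholesterol synthesis and uptake 18 of 28 genes rose at the low dose and 1, Insig2, fell. The second step passed upward in 10 and downward in 3, and the third upward in 3 and downward in 12. By shape, 10 went up then down and 3 were ordered upward. Under TPM the third step passed upward in 6 and downward in 8, with a median of -0.01 in place of -0.08. With that scaling 8 went up then down and 6 were ordered upward. Fdft1, squalene synthase, rose to a plateau and measured 18.2, 17.8 and 18.3 FPKM in the obese control, 28.3, 28.4 and 27.6 at the low dose, 28.9, 27.1 and 27.9 at the medium dose and 28.2, 27.5 and 29.8 at the high dose. Its first step was 0.61 ± 0.032 (adjusted p = 8.3e-10), and the 3 dose groups overlapped one another. The 2 Insig proteins, which hold the SREBP factors in the ER, differed from each other. Insig2 measured 210.0, 206 and 202 FPKM in the obese control, 123, 124 and 125 FPKM at the low dose and 89.7, 88.1 and 88.6 FPKM at the high dose. Insig1 differed by 0.00 ± 0.035 at the low dose (adjusted p = 0.97), fell by 1.09 ± 0.035 at the medium dose and rose by 0.73 ± 0.035 at the high dose.

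Of 19 tested genes of bile acid synthesis and transport, 5 went up then down, 5 down then up, and 2 each were ordered or at a plateau upward. Among all tested genes these shapes held 4.96%, 4.14%, 10.6% and 1.03%, so the ordered share of the list was near that of all genes. Under TPM 1 went up then down, 5 down then up, 4 were ordered upward and 5 were at a plateau upward. Akr1d1, a reductase of bile acid synthesis, measured 451, 448 and 443 FPKM in the obese control, 743, 758 and 745 at the low dose, 553, 508 and 522 at the medium dose and 694, 697 and 701 at the high dose. Slc27a5, which activates bile acids for conjugation, rose by 0.47 ± 0.017 and kept within its plateau. Abcc2, a canalicular exporter, fell by 0.59 ± 0.022 at the low dose and regained 0.38 ± 0.022 at the high dose.

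For fatty acid oxidation, 15 of 31 genes rose at the low dose and 8 fell, beside 18.3% and 14.8% of all tested genes. There were 5 upward plateaus, among them the carnitine and peroxisomal enzymes Cpt1a, Ehhadh, Acaa1a and Hsd17b4, against 1 under TPM and 2 with quantile scaling, so the count of plateaus depends on the scaling. Cpt1a, which controls fatty acid entry into mitochondria, measured 78.6, 77.2 and 79.1 FPKM in the obese control, 119.9, 118 and 119 at the low dose, 114, 119 and 117 at the medium dose and 132, 132 and 133 at the high dose. Ehhadh, the peroxisomal bifunctional enzyme, went from 108, 111 and 112 to 191, 183 and 185 FPKM at the low dose and did not go higher. Crot, a peroxisomal carnitine transferase, fell instead, by -1.07 ± 0.032, to a plateau. Angptl4, an inhibitor of lipoprotein lipase and a known PPARalpha target, fell at every step (-0.32 ± 0.036, -0.27 ± 0.036 and -0.23 ± 0.036), while Ppara itself was ordered upward (0.67 at the high dose).

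Plin2, the main coat protein of hepatocyte lipid droplets, was ordered downward and measured 67.6, 71.3 and 71.6 FPKM in the obese control, 53.5, 54.8 and 52.5 at the low dose, 31.4, 35.1 and 33.9 at the medium dose and 30.2, 30.5 and 29.9 at the high dose. Its largest step was the second (-0.66 ± 0.036), and the total was -1.19 ± 0.036 (adjusted p = 8.3e-13). G0s2, an inhibitor of triglyceride lipase, fell mainly at the high dose, from 238, 252 and 243 FPKM at the medium dose to 180.4, 177 and 182 FPKM. Cidec, another droplet protein, was ordered upward with a total of 0.14. Over the 28 tested lipoprotein and droplet genes 8 fell and 4 rose at the low dose, and 12 fell and 4 rose in the third step. Of all tested genes 14.8% fell and 18.3% rose at the low dose, and 10% fell and 10.3% rose in the third step. Under TPM the list had 7 down and 6 up at the low dose, and 8 down and 7 up in the third step.

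Of the 24 tested genes of glucose production, glycogen and the insulin response, 8 rose and 8 fell at the low dose, 7 rose and 7 fell at the medium dose, and 9 rose and 5 fell at the high dose. Among all tested genes these steps held 18.3% up and 14.8% down, then 10.8% and 12.2%, then 10.3% and 10%. G6pc, the last enzyme of glucose release, measured 88.4, 85.9 and 83.2 FPKM in the obese control, 83.5, 80.3 and 84.2 at the low dose, 50.6, 45.1 and 46.9 at the medium dose and 47.4, 48.5 and 47.5 at the high dose, with a fall of -0.79 ± 0.034 at the medium dose, and the steps before and after it did not pass (adjusted p = 0.25 and 0.90). Pck1, the entry enzyme of gluconeogenesis, fell by 0.49 ± 0.015 at the same step and returned by 0.45 ± 0.015 at the high dose. Igfbp1, a binding protein under insulin control, rose from 33.7, 32.8 and 32.9 FPKM to 55.5, 57.2 and 55.98 FPKM at the low dose and fell to 18.6, 18.1 and 16.4 FPKM at the medium dose. Slc2a2, the glucose transporter GLUT2, rose to a plateau (0.62 ± 0.022 at the low dose).

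Amino acid and drug metabolism leaned upward at the low dose. Of 32 urea cycle and amino acid genes 18 rose and 4 fell in that step. At the medium dose 5 rose and 16 fell, and at the high dose 15 rose and 4 fell. Between high dose and obese control 18 were higher and 7 lower, beside 26.6% and 25.3% of all tested genes. Cps1, the entry enzyme of the urea cycle, was ordered upward from 559.9, 556 and 547 FPKM to 805, 801 and 813 FPKM. Sds, serine dehydratase, fell slightly at the low dose (-0.09 ± 0.024) and rose by 0.44 ± 0.024 at the medium and 0.54 ± 0.024 at the high dose. In the P450 list 14 of 24 rose and 3 fell at the low dose. Later steps were balanced, with 11 up and 10 down at the medium dose and 8 up and 8 down at the high dose. Against the low dose, 9 were higher and 12 lower at the high dose. By shape, 9 members went up then down and 4 were ordered upward. Por, the reductase that feeds electrons to P450 enzymes, measured 109, 107 and 109 FPKM in the obese control, 159.8, 159.8 and 159 at the low dose, 174, 193 and 184 at the medium dose and 202, 205 and 201 at the high dose, and Cyp3a18 rose by 0.29 ± 0.037, 0.39 ± 0.037 and 0.20 ± 0.037. Cyp2c7 fell at every step, from 2068, 2040.4 and 2014 FPKM to 1265, 1237 and 1341 FPKM. For such near-identical P450 genes the counting can share reads between copies.

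Of 20 NRF2 targets, the antioxidant genes, 7 rose and 3 fell in the first step. In the second 6 rose and 5 fell, and in the third 11 rose and 2 fell. Of all tested genes 18.3%, 10.8% and 10.3% rose in these steps. By shape, 5 targets went down then up, 3 were ordered upward and 2 went up then down. Under TPM 11, 8 and 11 of the targets rose and 3, 5 and 1 fell. Gclm has been described above. Nqo1, a quinone reductase, turned back at the medium dose and again at the high dose, with 16.1, 16.1 and 17.5 FPKM in the obese control, 21.9, 22.9 and 22.4 FPKM at the low dose, 15.2, 14.5 and 14.05 FPKM at the medium dose and 26.2, 26.4 and 25.8 FPKM at the high dose.

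Of 21 genes known to respond to growth hormone, 6 rose and 10 fell at the low dose, 6 rose and 9 fell at the medium dose, and 8 rose and 3 fell at the high dose. Among all tested genes these steps held 18.3% up and 14.8% down, then 10.8% and 12.2%, then 10.3% and 10%. Besides Socs2 and Cish, Igf1, the growth factor that growth hormone induces, fell by 0.37 ± 0.017 at the low dose and regained 0.10 ± 0.017 and 0.17 ± 0.017. Prlr, the prolactin receptor, measured 17.4, 16.96 and 16.9 FPKM in the obese control, 18.8, 21.3 and 19.6 at the low dose, 4.78, 4.13 and 3.77 at the medium dose and 3.098, 3.15 and 3.44 at the high dose, a small rise of 0.21 ± 0.063 and then a fall of -2.00 ± 0.063 (adjusted p = 4.7e-12), so that the medium and high dose lay far below the other groups. Srd5a1, a steroid reductase, fell in the same step by -0.87 ± 0.023. Bcl6, a repressor in hepatocytes, measured 10.5, 10.6 and 10.5 FPKM in the obese control, 4.96, 4.84 and 5.35 at the low dose, 6.77, 6.92 and 6.901 at the medium dose and 2.87, 2.73 and 2.48 at the high dose, lowest at the high dose. By shape, 6 members went down then up and 4 up then down.

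Among the clock genes Per2, Per3, Cry1, Nr1d2 and Usp2 were ordered upward. Per3, a repressor of the core loop, measured 2.22, 2.34 and 2.31 FPKM in the obese control, 4.86, 5.46 and 4.88 at the low dose, 6.45, 7.31 and 6.73 at the medium dose and 6.96, 7.72 and 7.37 at the high dose. Arntl (BMAL1) and Npas2, its activators, fell at the low and the medium dose. Arntl measured 6.71, 5.78 and 5.67 FPKM in the obese control, 1.95, 2.04 and 2.04 at the low dose, 0.616, 0.912 and 0.826 at the medium dose and 0.824, 0.902 and 0.810 at the high dose, with steps of -1.22 ± 0.078, -0.76 ± 0.078 and 0.05 ± 0.078 (adjusted p of the last = 0.71). Dbp, a direct output of the loop, rose to 112, 117 and 109.5 FPKM at the medium dose and stood at 100.1, 98.6 and 99.9 FPKM at the high dose. Over 22 tested members 11 rose and 5 fell at the low dose. Between high dose and obese control 12 were higher and 5 lower, beside 26.6% and 25.3% of all tested genes. No hour of liver collection entered the comparison, and its part in the clock profiles was not tested.

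The RefSeq promoter of Arntl (listed there as Bmal1) carries 1 match to the ROR element TAGGTCA, searched on both strands, from 16 to 10 bases before the start; capitals mark it. The E-box CACGTG was found in Tef, from 198 to 193 bases before the start, and in 4 of 18 clock promoters (22.2%) against 8.95% of the tested genes. For Dbp, Per3 and Tsku the searched motifs had no match in this window. The share of tested genes with the ROR motif was 1.88%.

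Arntl at chr1:176766078-176766327 (plus strand): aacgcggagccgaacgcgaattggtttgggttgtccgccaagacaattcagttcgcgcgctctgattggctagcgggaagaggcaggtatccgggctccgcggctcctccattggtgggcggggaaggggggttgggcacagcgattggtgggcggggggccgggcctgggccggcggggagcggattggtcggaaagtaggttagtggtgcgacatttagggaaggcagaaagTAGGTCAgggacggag

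Markers of Kupffer cells and macrophages rose at the low dose and fell at the medium dose. Of 15 tested, 13 rose in the first step, 13 fell in the second, and 11 had the shape up then down. Their summed level was 357 to 367 FPKM in the obese control, 453 to 464 FPKM at the low dose, 304 to 315 FPKM at the medium dose and 315 to 320 FPKM at the high dose, so on the deposited FPKM scale the low dose libraries stood above and the other doses below the obese control. The median difference of the list between high dose and obese control was -0.24 on this scale and -0.07 under TPM. In whole tissue, fewer cells of a type and less RNA per cell cannot be told apart. Clec4f, the Kupffer cell lectin, measured 58.2, 56.1 and 59.4 FPKM in the obese control, 79.1, 80.5 and 76.5 at the low dose, 54.1, 55.2 and 57.8 at the medium dose and 58.9, 57.4 and 60.2 at the high dose, and only the low dose libraries stood apart. Cd5l, a macrophage survival protein, rose by 0.22 ± 0.043 and fell by 1.05 ± 0.043, to 14.4, 16.04 and 15.1 FPKM at the high dose. Mrc1, a mannose receptor shared with sinusoidal endothelium, rose to a plateau, from 7.42, 7.55 and 6.83 to 12.5, 13.2 and 12.1 and 13.7, 14.3 and 13.5 FPKM, and Marco, Aif1 and Lyz2 were in none of the shapes. Under TPM 9 and with quantile scaling 10 of the 15 had the shape up then down.

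Immediate early genes peaked at the low dose too. Of 24 tested, 15 rose and 4 fell in the first step, 1 rose and 16 fell in the second, and 11 went up then down, with medians of 0.36 and -0.31. Jun measured 20.7, 20.96 and 22.2 FPKM in the obese control, 38.5, 37.7 and 36.9 at the low dose, 23.7, 24.6 and 23.97 at the medium dose and 27.9, 26.8 and 25.8 at the high dose. Junb rose by 0.60 ± 0.033 and then fell in both later steps (-0.19 ± 0.033 and -0.70 ± 0.033), below the obese control. Gadd45g, a stress response gene, went the other way and fell from 75.5, 76.5 and 79.9 to 40.3, 42.9 and 37.3 FPKM. The summed level of the list was 422 to 430 FPKM in the obese control and 479 to 493 FPKM at the low dose.

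Acute phase proteins, secreted by hepatocytes in inflammation, had 15 of 23 members up at the low dose, 18 down at the medium dose and 16 up again at the high dose. Kng1, kininogen, measured 453, 463 and 468 FPKM in the obese control, 927, 941 and 954 at the low dose, 494, 464 and 467 at the medium dose and 512, 505 and 516 at the high dose. Hamp, hepcidin, the hormone of iron balance, went from 1053, 1030.5 and 1052 FPKM to 1656, 1745 and 1703 FPKM and back to 1085, 1056 and 1083 FPKM. The Kupffer marker sum moved in the same direction at the first 2 steps, and its part in this result was not tested. By shape, 10 went up then down and 8 down then up. For high dose against obese control, the median of the list was -0.03 on the deposited scale, 0.15 under TPM and 0.18 with quantile scaling, so its sign turns with the scaling. For low dose against obese control it was 0.10, 0.14 and 0.14. The list median was thus higher at the low than at the high dose on the deposited scale, but not under TPM or quantile scaling.

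Sinusoidal endothelial markers rose at the low dose and again at the high dose. Of 15 tested, 13 rose in the first step, 1 in the second and 10 in the third, none fell, and 7 were ordered upward and 4 at a plateau. The summed level was 138 FPKM in each obese control library, 186 to 188 FPKM at the low dose, 188 to 193 FPKM at the medium dose and 215 to 220 FPKM at the high dose. Stab2, a scavenger receptor for hyaluronan, measured 1.804, 1.63 and 1.67 FPKM in the obese control, 3.84, 3.82 and 3.68 at the low dose, 4.02, 3.83 and 3.75 at the medium dose and 4.79, 4.799 and 4.74 at the high dose. Kdr, the VEGF receptor 2, rose at each step (0.59 ± 0.037, 0.17 ± 0.037 and 0.21 ± 0.037), and Lyve1 went from 10.9, 10.5 and 10.7 FPKM to 22.3, 21.6 and 22.5 FPKM. For Clec4g and Rspo3 no change was called. Under TPM 10 were ordered upward and 0 at a plateau, so the direction held and the plateau did not.

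Stellate cell and matrix genes fell at the low dose: 14 of 26 fell and 1 rose in the first step, and 9 went down then up. Besides Lox, the plateau held Fn1, Bgn and Pdgfrb. Fn1, fibronectin, measured 296, 299.6 and 299 FPKM in the obese control and 242, 238 and 244 FPKM at the low dose. Col3a1, a fibrillar collagen, fell by 0.34 ± 0.032 and regained 0.12 ± 0.032 in the last step. Lrat, the vitamin A esterase of stellate cells, measured 5.76, 5.87 and 5.49 FPKM in the obese control, 3.74, 3.65 and 3.802 at the low dose, 4.07, 3.49 and 3.64 at the medium dose and 4.98, 5.03 and 5.06 at the high dose. The summed level of the list was 636 to 639 FPKM in the obese control and 521 to 530 FPKM at the low dose, without overlap.

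**Figure D4:**
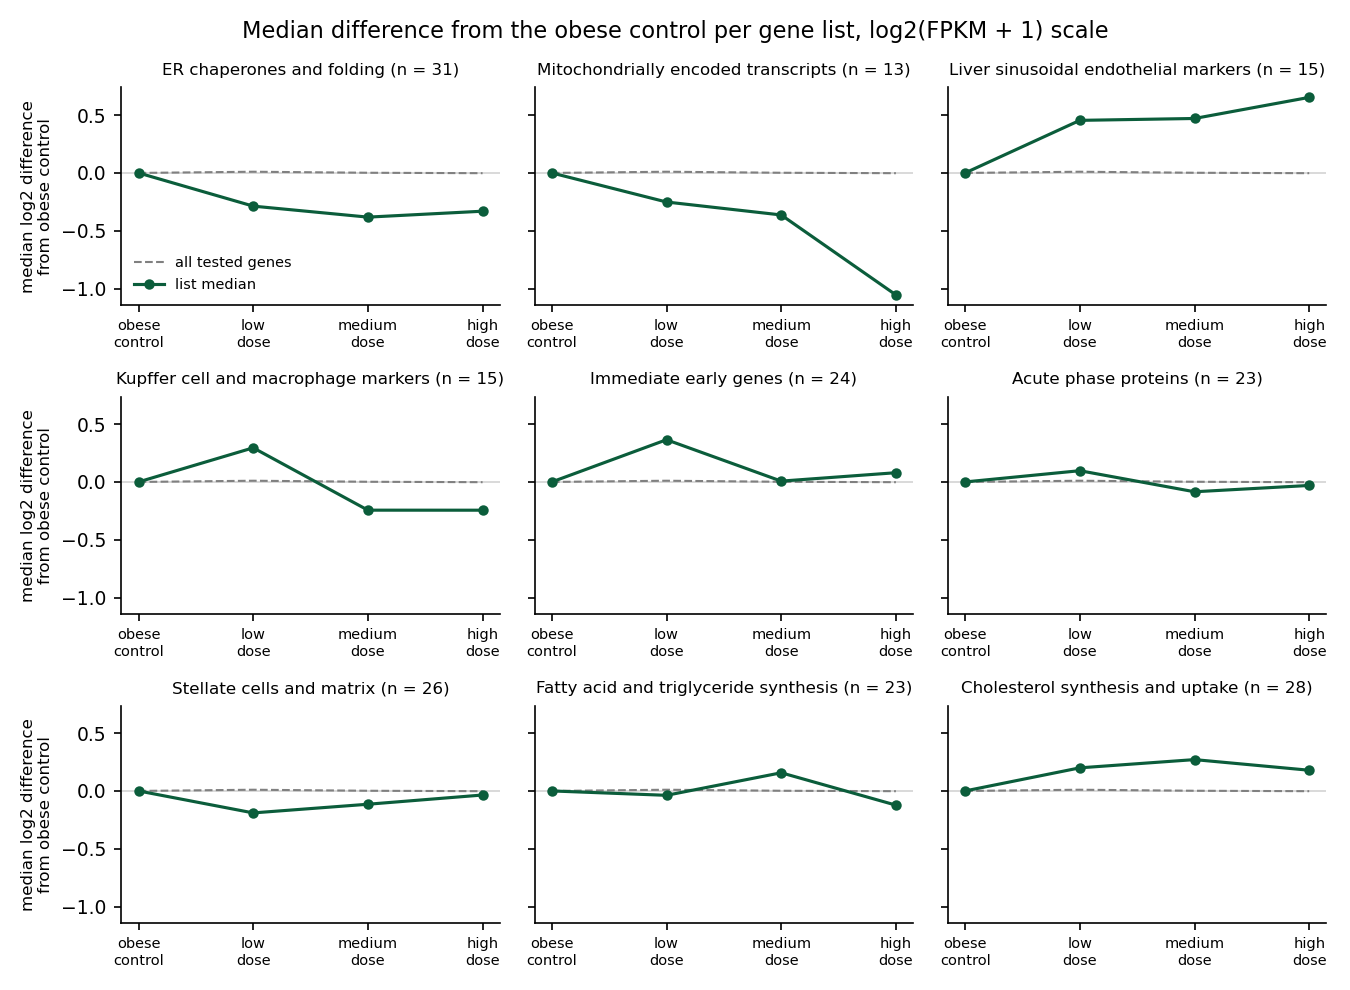
Median difference from the obese control at each dose, on the log2(FPKM + 1) scale, for 9 gene lists (green line and points) and for all tested genes (dashed line), which stay near 0. ER and mitochondrially encoded genes run downward, endothelial markers upward, and Kupffer and immediate early genes peak at the low dose. Acute phase genes peak there on this scale, but not under TPM or quantile scaling.

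Neutrophil markers S100a8 and S100a9 lay between 3.49 and 7.93 FPKM and Mpo at 0.0981 FPKM or less. None of 3 tested members passed the F-test, while 1 passed upward in the first step. Their summed level was 13.2 to 13.5 FPKM in the obese control and 15.5 to 16.6 FPKM at the low dose. It was 12.4 to 13.4 FPKM at the medium and 13.9 to 14.3 FPKM at the high dose. Of 6 tested lymphocyte markers 3 changed, among them Cd4 (0.52 ± 0.089 at the low dose), which macrophages also carry. Of 7 tested red cell markers 4 fell at the low dose, and their summed level was 1374 to 1657 FPKM in the obese control, 938 to 1144 FPKM at the low dose, 1116 to 1370 FPKM at the medium dose and 1046 to 1284 FPKM at the high dose. Hba-a2, an alpha globin, went from 429, 355 and 387 FPKM to 282, 242 and 259 FPKM, and Alas2, the first enzyme of heme synthesis in red cells, fell by 0.74 ± 0.095.

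Of the remaining lists, the interferon response had 10 of 25 members up and 2 down at the low dose, 2 up and 7 down at the medium dose and 0 up and 6 down at the high dose, with 5 up then down and 4 ordered downward. Among all tested genes these steps held 18.3% up and 14.8% down, then 10.8% and 12.2%, then 10.3% and 10%. Under TPM 6 of the interferon members were ordered upward and 3 downward, and the third step passed upward in 2 and downward in 3. Of 15 inflammation genes 10 changed across the series, and of 14 cell cycle and p53 genes 9, beside 56.9% of all tested genes. In the cell cycle list 2 were ordered in each direction, beside 10.6% upward and 8.05% downward of all tested genes. Of the 16 hepatocyte markers 13 changed, and their first step passed upward in 4 and downward in 4. Bile duct markers changed in 3 of 4 tested, fat cell markers in 4 of 4, and the 1 tested marker of the exocrine pancreas did not pass.

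The ordered genes differed by length, a property the shape rule did not use. Genes ordered upward had a median length of 3006 bases in the table and those ordered downward 1543 bases. Among the shortest of 5 nearly equal groups of tested genes (42 to 1103 bases) 3.10% were ordered upward and 11.9% downward, and among the longest group (3740 to 29464 bases) 19.7% and 2.72%. The median difference between high dose and obese control went from -0.17 in the shortest to 0.10 in the longest group. Across the 11945 genes the Spearman correlation of length with the trend per dose step was 0.27, given as a description, since genes of 1 library share its preparation.

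The part of gene length in the shapes was examined by a fit in which the dependence on length was removed from each library. There, 1087 genes were ordered upward and 885 downward, and 970 and 697 of them were in the same class as before. In the same setting the ER list had 9 members ordered downward and 7 at a plateau. The mitochondrially encoded list had 11 ordered downward, with a median total of -0.88, and the endothelial list had 7 ordered upward and 4 at a plateau, with a median total of 0.56 in place of 0.65.

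**Figure D5:**
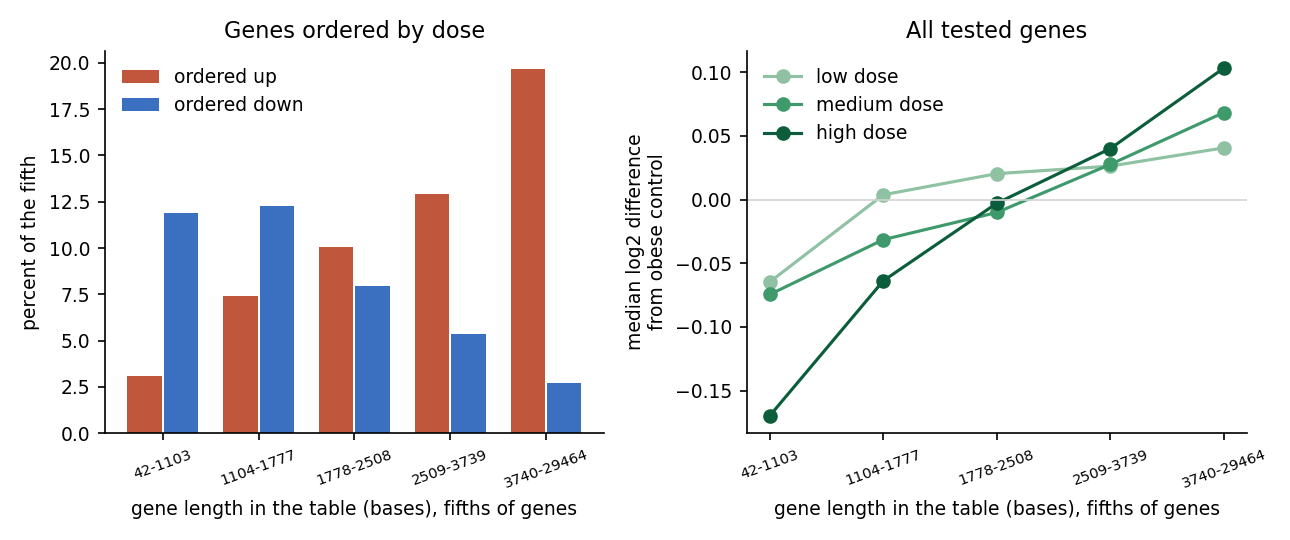
Left, percent of genes ordered upward (red) and downward (blue) in 5 nearly equal groups of gene length; right, median log2 difference of low, medium and high dose from the obese control in the same groups. Upward genes grow from 3.10% to 19.7% from the shortest to the longest group, and the slope of the medians steepens with dose.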

How the data were processed

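The authors deposited 1 table of FPKM for 33657 genes and 18 libraries of liver RNA. Per the labels, the liver was frozen in liquid nitrogen and libraries were made with a NEBNext Ultra RNA kit for Illumina sequencing. Per the submitters' processing notes, CASAVA 1.7 and Bowtie 0.12.2 were used with the build mm8, which is of the mouse, while gene identifiers are those of rat Ensembl. No source used here gives the rat build, the annotation or the strand setting. Multiplied by gene length, 100% of the values came out as whole reads (tolerance 0.001), and these gave the depth per library.

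Values were taken as log2(FPKM + 1) for the 11945 genes at 1 FPKM or more in at least 3 libraries. limma 3.58.1 (R 4.3.3) was fitted with a mean-variance trend to all 6 groups, with Benjamini-Hochberg adjustment over all tested genes and a threshold of 0.05; tests were two-sided. Errors beside differences are standard errors of that fit, which understates changes of low genes through the pseudocount of 1. An exact permutation test of 3 against 3 libraries cannot give a p below 0.1. Of the tested genes, 9716 reached 1 FPKM in all 18 libraries and 27 in none of the 12 described here. The 214 genes at 1 FPKM in exactly 3 libraries had a median highest level of 1.40 FPKM, and the 281 in exactly 2, not tested, 1.24 FPKM.

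Named genes were the 5 largest per shape and direction with 2 FPKM or more in a group, and up to 5 members per list by smallest F-test p. Other list members are named where they make up a count, after their values were seen. Placeholder and clone names were left out, a choice extended after the data were seen. Shapes, 31 gene lists and motifs were chosen with earlier results of these data known. The calculation was tested on simulated data. Alternatives were the pseudocount, the filter, TPM and quantile scaling, limma voom on recovered reads, the 12 libraries alone, the replicate number as a block, the plateau bound, the order of mean FPKM and leaving out each library; a correction for gene length was added after seeing the data. A few list members are not reported here.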

Additional observations from a re-analysis of the deposited data

How the results depend on the processing

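Counts of genes per step, trend and shape stayed within 1.5 times the reported ones with a pseudocount of 0.1, no filter on low values, voom on recovered reads (6866 genes changed across the series), the 12 libraries alone, the order of mean FPKM, and the gene length correction. TPM scaling gave 952 genes lower from low to medium dose, 2596 higher and 638 lower from medium to high dose, a trend over 4 groups rising in 5227 and falling in 1470, a trend over the 3 doses rising in 4001 and falling in 824, 2517 ordered upward and 292 downward, 279 and 18 with each step past the threshold upward and downward, and 365 up then down. Quantile normalization gave 37 genes with each step downward. A plateau bound of 0.25 left 19 genes up and 10 down, and one of 0.75 gave 395 and 355. Without medium dose replicate 3 the genes with each step upward were 60; leaving out each library in turn gave 60 to 93. Each of the 178 named genes was followed by its trend or step with the smallest p. The trend of Ttr reversed with quantile normalization (0.0047 per step, adjusted p = 0.75), and that of COX1 was no longer called there. Genes that kept their direction but were no longer called numbered 4 there, COX1 among them, 4 under TPM and 5 with no filter. They numbered 3 each with voom, the gene length correction, a pseudocount of 0.1 and the 12 libraries alone. Leaving out each library gave 36 such cases in all.

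Deviations of same-numbered libraries correlated between -0.082 and 0.064 (18 pairs), and those of different-numbered libraries between -0.086 and 0.129 (36 pairs). The medians were 0.0016 and -0.0068. Of 12 libraries, 6 correlated best with their own number. Whether the replicate numbers pair the libraries was not tested. With the replicate number as a block, 1254 genes were ordered upward and 951 downward, 120 and 97 at a plateau, and 562 and 475 turned back; no count moved by over 1.5 times.

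Levels near 1 FPKM, the 3 libraries per group and unknown dose amounts limit these results: ranks are not amounts, and a shape that was not called is not shown to be absent.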
